A study of Homo sapiens with 12 samples.

Results

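The translation initiation factor genes described here are the 55 human coding genes whose symbol begins with EIF and a digit from 1 to 6, of 18651 coding genes measured. They were chosen by name alone, without use of any measured value. All libraries came from 22Rv1, an established human prostate cancer cell line, carrying a gene edit that gives C1111S-SF3B1, so every group, the vehicle included, shares that substitution in a subunit of the SF3b splicing complex. The groups, 4 in all with 3 libraries each, were WX-02-23 at 20 µM, WX-02-43 at 20 µM, PladB at 10 nM, and the vehicle DMSO at 0.1% by volume. The compounds were given for 3 h, and 4-thiouridine, a uridine analogue that marks newly made RNA, followed at 100 µM for 1 h. The labels call WX-02-23 and WX-02-43 stereoprobes; PladB is pladienolide B, a natural product that binds SF3b and inhibits splicing. Whether the edited line is 1 clone, and whether replicates came from cultures of their own, is not in the labels; p-values therefore weigh only the spread among these libraries, which may be technical.

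Initiation brings a ribosome to the start codon of an mRNA. eIF4E binds the cap, eIF4G scaffolds, and the helicase eIF4A unwinds the leader; eIF3 bridges the mRNA and the small ribosomal subunit; eIF1, eIF1A and eIF5 govern scanning and start codon choice; and eIF2 carries the initiator tRNA and is recharged by its exchange factor eIF2B. Kinases that phosphorylate eIF2 and repressors that bind eIF4E are the main brakes on the process. Many mRNAs of the translation machinery start with a cytidine and a run of pyrimidines, the terminal oligopyrimidine (TOP) motif, which ties their translation to mTOR signalling.

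The libraries held 3′ end reads counted over 3′ UTR intervals. A read with at least 1 T read as C is called a T>C read and is taken as newly made RNA, and the labelled share is the percent of a gene's reads that are T>C reads. Each library held 12333255 to 21417549 reads on coding genes, of which 826774 to 2094424 were T>C reads, with the 3 PladB libraries between 826774 and 1175585. Between replicates, the variance of counts was a median of 12.6 to 16.3 times the mean, depending on group and readout. The luminal prostate markers FOXA1, HOXB13, KRT8 and KRT18 were each above 182 CPM (counts scaled to the library's effective size) in every library, while KLK2 reached at most 66.5 CPM and KLK3 at most 16.7 CPM. The leukocyte marker CD3E and the fibroblast marker COL1A2 were at 0 in every library, PTPRC reached at most 0.525 CPM, COL1A1 at most 11.3 CPM and VIM at most 35.8 CPM. A bulk library cannot tell fewer cells from less RNA per cell.

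Of the 55 genes, 49 had at least 100 reads in every library, 53 passed the filter on low counts for all reads and 51 passed it for T>C reads. Those not tested in either readout were EIF3C and EIF3CL, near-identical copies of the eIF3 scaffold subunit c; EIF4E1B, an oocyte form of the cap-binding protein, and EIF4E3, a further cap-binding form, were tested in all reads only. EIF3C, EIF3CL and EIF4E1B had no T>C read in any library. Reads that map to several places made up over 20% of the reads of 7 members: EIF1AX (55.8%), EIF3A (55.0%), EIF3F (84.7%), EIF4B (67.2%), EIF4E (30.7%), EIF4H (85.9%) and EIF5A (42.9%). EIF5AL1, a copy of EIF5A that the annotation gives 1 exon, and EIF4EBP3, whose 316-base interval lies wholly in that of the readthrough gene ANKHD1-EIF4EBP3 on the same strand, are also uncertain as single genes. The counting is not stated to use strand, and EIF2AK1, EIF3G, EIF3J, EIF3M and EIF4A2 overlap genes of the opposite strand by 143, 100, 108, 411 and 6 bases.

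The labelled share differed widely among the members in DMSO cells. It was ranked over the 49 members with at least 100 reads in every library, and EIF1AD stood at the top. EIF1AD, which encodes a nuclear protein related to eIF1A, had a labelled share of 57.6%, 82.5% and 64.1% in the 3 DMSO libraries. EIF1B, a paralog of the start codon factor EIF1, followed at 31.9% ± 3.36 (SD, n = 3), and EIF4A2, one of the cytoplasmic eIF4A helicases, at 22.3% ± 1.14. EIF4ENIF1, outside that ranking for its few reads in PladB, had 24.8% ± 11.3 in DMSO. The lowest shares in DMSO among the ranked members were those of the eIF3 subunit genes EIF3K (0.499% ± 0.518), EIF3F (1.05% ± 1.00) and EIF3E (2.04% ± 0.628). Their counted intervals were 39, 149 and 142 bases long, against 2054, 410 and 628 bases for EIF1AD, EIF1B and EIF4A2. The share was not corrected for the T positions that reads cover, and the part of interval length in these differences was not tested. EIF4E3, with fewer reads, had 0 of 270 reads with T>C in DMSO, which allows a share of up to 1.11%. The median over the 49 members was 6.97% ± 1.07 in DMSO. The T>C reads that sequencing errors or variants give were not subtracted, as unlabelled cells were not analysed here.

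In PladB cells the newly made part of these mRNAs was smaller. Summed over the members, the labelled share was 5.23%, 4.91% and 4.72% in the PladB libraries, against 8.02%, 7.16% and 7.75% in the DMSO libraries. The groups did not overlap, and the ratio of the means was 0.648. Over all coding genes the share was 5.44% ± 0.191 in PladB and 9.45% ± 0.430 in DMSO, a ratio of 0.576. The WX-02-23 libraries stood at 8.05% ± 0.119 and the WX-02-43 libraries at 7.38% ± 0.129 over the members, and both overlapped DMSO (7.64% ± 0.441). The 2 stereoprobe groups did not overlap each other, but their order turned round by another measure: among T positions covered by reads, the converted percent was 0.684% ± 0.0181 in WX-02-23 and 0.729% ± 0.0149 in WX-02-43. By that measure DMSO stood at 0.575% ± 0.0177, below both stereoprobes, and PladB at 0.308% ± 0.00269, below all. The converted percent over all coding genes had the same order of groups. It was 0.811% ± 0.0156 in WX-02-23, 0.913% ± 0.0364 in WX-02-43, 0.706% ± 0.0245 in DMSO and 0.318% ± 0.00897 in PladB. The labelled share over all coding genes was 9.64% ± 0.217 in WX-02-23 and 9.10% ± 0.277 in WX-02-43, with overlap.

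**Figure D1:**
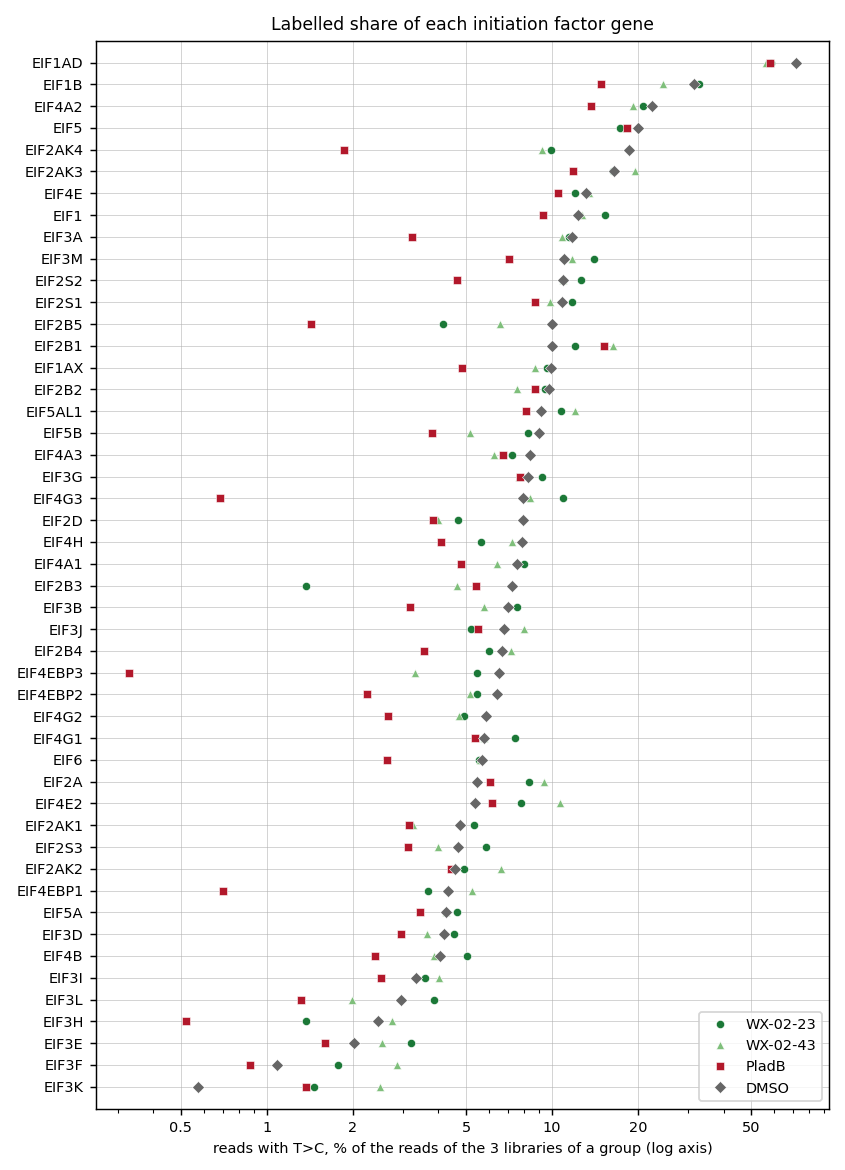
Labelled share of 48 initiation factor genes with at least 100 reads in every library, as the percent of the reads of a group's 3 libraries that carried T>C (log axis), ordered by the share in DMSO; EIF1AY, on chromosome Y, is not plotted. Symbols mark WX-02-23, WX-02-43, PladB and DMSO, and the PladB symbol lies below that of DMSO for 44 of the 48 genes, the WX-02-23 symbol for 23 and the WX-02-43 symbol for 30.

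PladB against DMSO asks what inhibition of splicing does to the initiation factor mRNAs within hours. In all reads, which follow the standing pool of mRNA, 19 of 53 members tested were higher in PladB and 5 were lower, with 29 not called (edgeR quasi-likelihood test, adjusted p under 0.05). All reads were scaled within each library, and the spike-ins were not used. Rises and falls in all reads are thus relative to the other genes, not amounts per cell. The background was 30.1% of all coding genes called, 13.9% higher and 16.3% lower, so that members were called higher in 35.8% of cases and lower in 9.43%. The median log2 change was 0.20 over the members and -0.07 over all genes tested. Leaving out the 7 members with many multimapping reads, EIF5AL1 and EIF4EBP3 gave 15 higher and 4 lower of 44. The members' summed part of all coding reads was 1.20% ± 0.00913 in PladB and 1.17% ± 0.00761 in DMSO; without EIF5AL1 it was 1.09% ± 0.00496 in PladB and 1.10% ± 0.0160 in DMSO, so the sign of that difference rests on EIF5AL1.

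**Figure D2:**
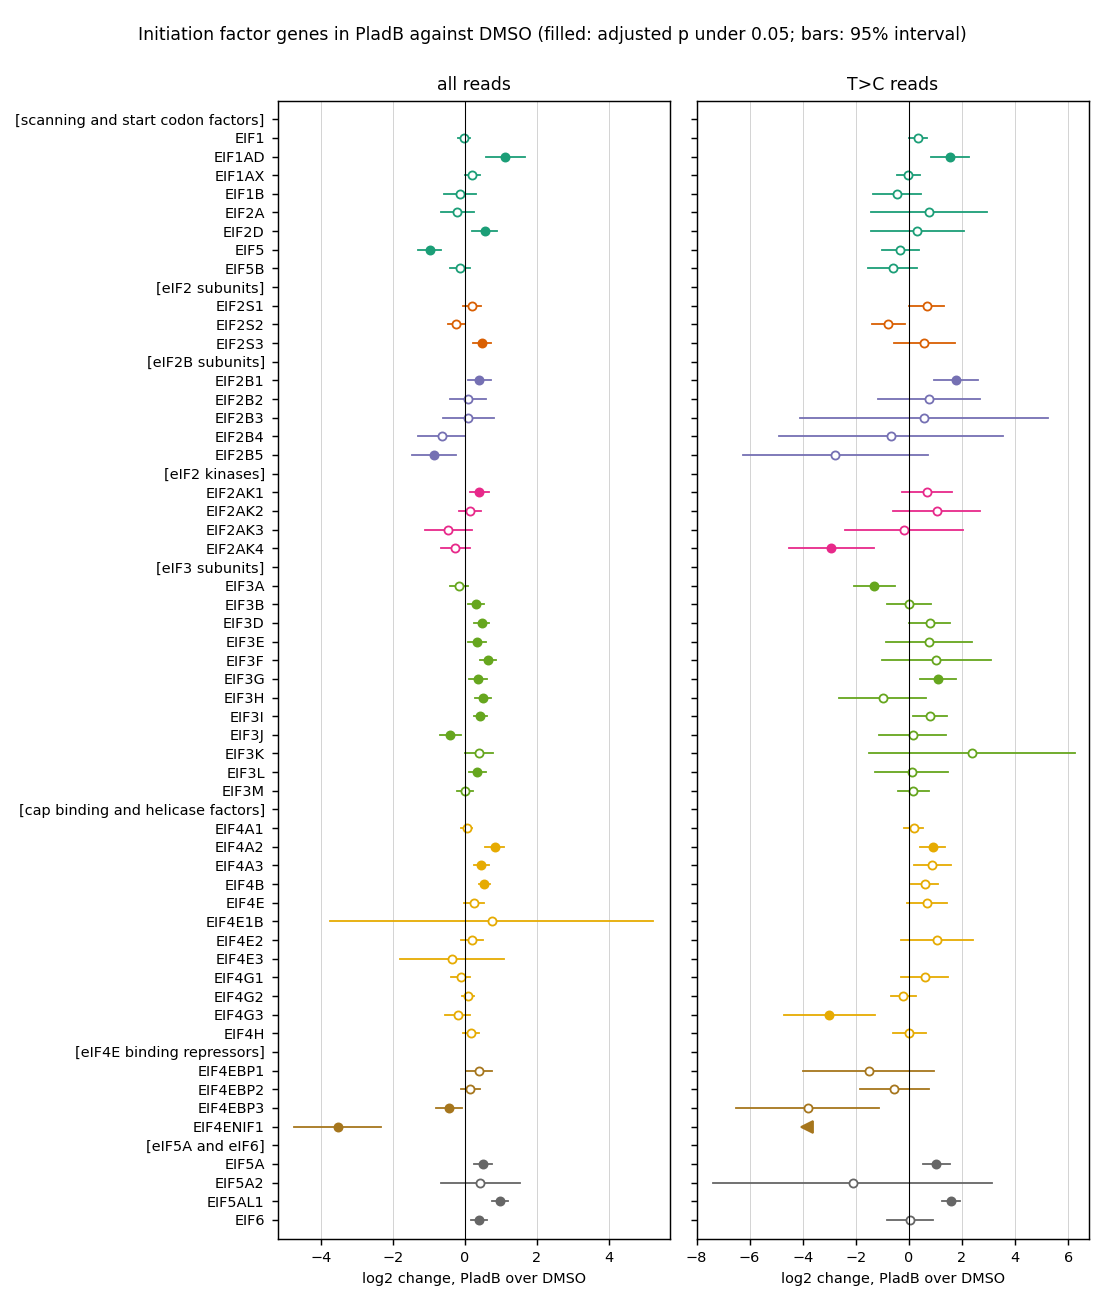
Log2 change of PladB over DMSO for 52 members in all reads (left) and 50 in T>C reads (right), grouped by role, with 95% intervals from edgeR; filled points have an adjusted p under 0.05, and the triangle is the bound for EIF4ENIF1, which had no T>C read in PladB. Most filled points in all reads lie right of 0 and 8 of them are eIF3 subunits, while the T>C panel has filled points on both sides.

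The eIF3 subunits, the largest role group with 14 genes listed, gave the most genes called higher. Of 12 tested, 8 were higher in PladB (EIF3B, EIF3D, EIF3E, EIF3F, EIF3G, EIF3H, EIF3I and EIF3L) and 1, EIF3J, was lower, with a median log2 change of 0.35. That was 66.7% higher, against 13.9% of all genes tested and 35.8% of all members. The share was larger among the eIF5A and eIF6 genes, with 3 of 4 higher (75%). EIF3I, a WD-repeat subunit (3′ UTR interval in hg19 chr1:32696798-32697205, + strand), had 695, 743 and 595 CPM in PladB, against 493, 501 and 513 CPM in DMSO. Every PladB library lay above every DMSO library, and the log2 change was 0.43 ± 0.09 (SE; edgeR adjusted p = 0.000278). EIF3H, an MPN-domain subunit, had 314 ± 30.8 CPM in PladB and 222 ± 21.2 CPM in DMSO, a log2 change of 0.50 ± 0.11 (edgeR adjusted p = 0.000485). EIF3D, a subunit with cap-binding activity of its own, rose by 0.46 ± 0.11 on the log2 scale (edgeR adjusted p = 0.000719). The highest value among the subunits was that of EIF3F at 0.64 ± 0.11 (edgeR adjusted p = 2.48e-05), but 84.7% of its reads were multimapping, and without those reads its change was 0.46 with an adjusted p of 0.208. The rises of EIF3B, EIF3E, EIF3G and EIF3L were between 0.30 and 0.37 on the log2 scale, and these calls were less stable. The call of EIF3B was lost without DMSO replicate 1, PladB replicate 2 or PladB replicate 3 (edgeR adjusted p = 0.171, 0.163 and 0.0614), and that of EIF3E without any 1 library other than PladB replicate 2 (edgeR adjusted p from 0.0562 to 0.231). EIF3G lost its call without DMSO replicate 1 or PladB replicate 3 (edgeR adjusted p = 0.124 and 0.0672), and EIF3L without DMSO replicate 3 or PladB replicate 3 (edgeR adjusted p = 0.0814 and 0.0909).

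EIF3J went the other way. This loosely bound subunit, which sits near the mRNA entry channel (chr15:44853348-44855001, + strand), had 71.9, 75.2 and 73.1 CPM in PladB, against 88.8, 108 and 96.1 CPM in DMSO. The groups did not overlap, and the log2 change was -0.41 ± 0.14 (edgeR adjusted p = 0.0254). Leaving out DMSO replicate 2, PladB replicate 1 or PladB replicate 3 ended the call, with edgeR adjusted p-values of 0.100, 0.0710 and 0.0545. EIF3A, EIF3K and EIF3M had log2 changes of -0.17, 0.40 and -0.00 and were not called.

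Among the factors that bind the cap or unwind the leader, 3 of 12 tested rose and none fell. EIF4A2 (chr3:186507059-186507686, + strand) had 323, 297 and 333 CPM in PladB, against 205, 142 and 192 CPM in DMSO. Every PladB library stood well above every DMSO library, and the log2 change was 0.82 ± 0.13 (edgeR adjusted p = 2.34e-06). EIF4B, a cofactor of the eIF4A helicase (chr12:53434008-53435999, + strand), had 1156, 1127 and 1087 CPM in PladB, against 768, 720 and 830 CPM in DMSO. Its log2 change was 0.54 ± 0.08 (edgeR adjusted p = 1.38e-06), and 0.48 without multimapping reads (adjusted p = 0.000446). EIF4A3, an eIF4A relative in the exon junction complex that marks spliced mRNA, rose by 0.46 ± 0.11 (edgeR adjusted p = 0.000808). The paralog EIF4A1 had 1091 ± 31.3 CPM in PladB and 1057 ± 71.9 CPM in DMSO and was not called, nor were EIF4E and the scaffold genes EIF4G1, EIF4G2 and EIF4G3. The difference between EIF4A2 and EIF4A1 in their response was not tested.

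**Figure D3:**
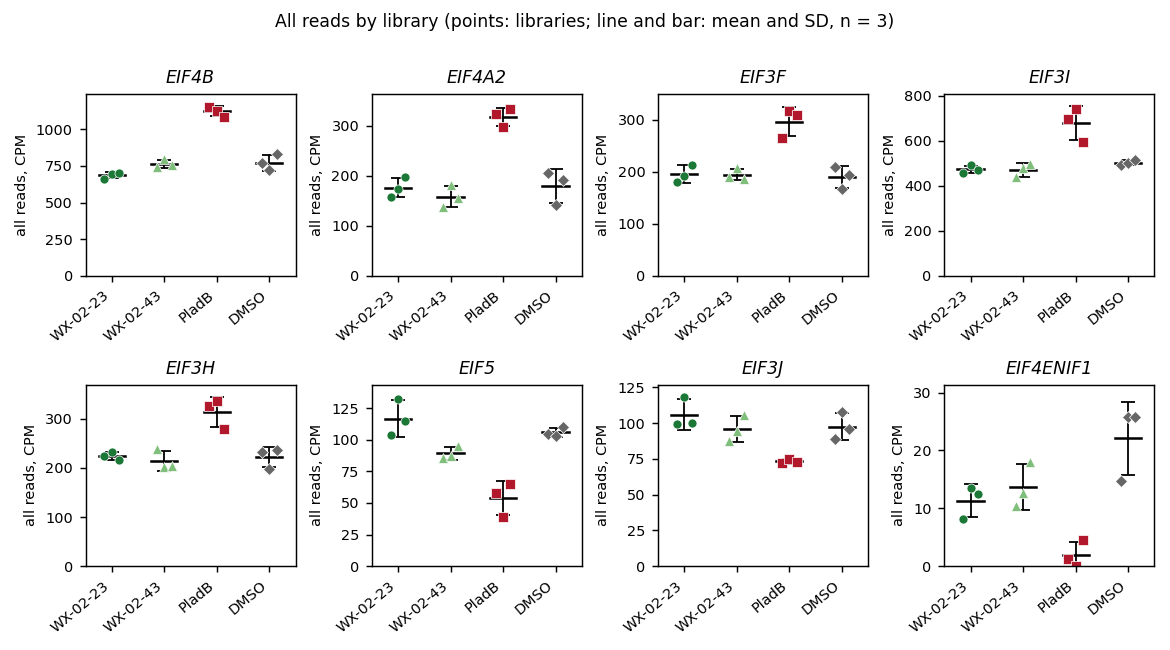
All reads of 8 initiation factor genes in CPM (y axes from 0) in each library of WX-02-23, WX-02-43, PladB and DMSO, with the mean and SD of 3 libraries. The PladB points are above those of DMSO for EIF4B, EIF4A2, EIF3F, EIF3I and EIF3H and below them for EIF5, EIF3J and EIF4ENIF1.

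The deepest fall belonged to a repressor. EIF4ENIF1 encodes 4E-T, a protein that binds eIF4E and carries it to processing bodies and the nucleus (chr22:31835345-31835865, − strand). It had 22, 0 and 62 reads in the PladB libraries, against 262, 401 and 433 reads in the DMSO libraries, or 1.91 ± 2.33 CPM in PladB and 22.1 ± 6.35 CPM in DMSO. The groups were far apart, with a log2 change of -3.53 ± 0.60 (edgeR adjusted p = 1.2e-05). WX-02-23 libraries had 11.3 ± 2.79 CPM and WX-02-43 libraries 13.7 ± 3.93 CPM, and neither differed from DMSO by the test. EIF4EBP3, a small repressor that competes with eIF4G for eIF4E, had 47.5 ± 8.33 CPM in PladB and 64.6 ± 2.06 CPM in DMSO, a log2 change of -0.44 (edgeR adjusted p = 0.0481), which cannot be told from the readthrough gene and was lost without any 1 library other than PladB replicate 3 (edgeR adjusted p from 0.0714 to 0.211). Its relatives EIF4EBP1 and EIF4EBP2 had log2 changes of 0.40 and 0.15 and were not called; EIF4EBP2, with most reads of the repressors, had 148 ± 18.1 CPM in PladB and 133 ± 12.7 CPM in DMSO.

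Among the 9 members grouped as scanning and start codon factors, EIF1AD and EIF2D rose and EIF5 fell. Of the genes for eIF1, eIF1A and eIF5 themselves, EIF5 alone was called. EIF5, which makes eIF2 hydrolyse GTP at the start codon (chr14:103807390-103811362, + strand), had 57.8, 39.1 and 65.1 CPM in PladB, against 105, 103 and 110 CPM in DMSO. The groups were wide apart, with a log2 change of -0.97 ± 0.16 (edgeR adjusted p = 6.19e-06). EIF1AD had 50.4, 49.9 and 51.7 CPM in PladB, against 16.3, 37.3 and 16.4 CPM in DMSO, a log2 change of 1.12 ± 0.27 (edgeR adjusted p = 0.0012). DMSO replicate 2 stood above the other DMSO libraries for this gene, yet below every PladB library. EIF2D, a factor that can place initiator tRNA without eIF2, rose by 0.55 ± 0.17 (edgeR adjusted p = 0.0114). EIF1, the gatekeeper of start codon choice, had 875 ± 44.9 CPM in PladB and 894 ± 62.4 CPM in DMSO and was not called, with a 95% interval of its log2 change from -0.20 to 0.14.

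For eIF2 and its regulators the calls were few. EIF2S3, the gamma subunit that holds GTP and the initiator tRNA, had 217 ± 28.0 CPM in PladB and 156 ± 21.5 CPM in DMSO, a log2 change of 0.47 ± 0.13 (edgeR adjusted p = 0.00332), while EIF2S1 and EIF2S2 were not called. EIF2S2, the beta subunit, had 205 ± 22.1 CPM in PladB and 242 ± 24.4 CPM in DMSO. Of the 5 eIF2B subunit genes, EIF2B1 rose by 0.40 ± 0.15 (edgeR adjusted p = 0.0412; 0.142, 0.135 and 0.299 without DMSO replicate 1, DMSO replicate 2 or PladB replicate 2) and EIF2B5, the catalytic subunit, fell by 0.86 on the log2 scale (SE 0.30; edgeR adjusted p = 0.0250). EIF2B5 had 16.7, 12.4 and 27.0 CPM in PladB, against 24.8, 51.6 and 25.5 CPM in DMSO, with groups that overlap, and its edgeR adjusted p was 0.346, 0.0791 and 0.124 without DMSO replicate 2, PladB replicate 1 or PladB replicate 2. Among the kinases, EIF2AK1 (HRI, the haem-regulated one) rose by 0.39 ± 0.13 (edgeR adjusted p = 0.0169), with DMSO replicate 2 at 277 CPM inside the PladB range of 269 to 295 CPM; its call was lost without DMSO replicate 1, DMSO replicate 3 or PladB replicate 2 (edgeR adjusted p = 0.0955, 0.179 and 0.0629). EIF2AK2, EIF2AK3 and EIF2AK4 were not called in all reads. EIF5A, whose protein carries hypusine and helps elongation, rose by 0.51 ± 0.12 (edgeR adjusted p = 0.00125), with groups that overlap. Its PladB libraries had 997, 1098 and 1200 CPM, against 590, 1069 and 662 CPM in DMSO, and without DMSO replicate 1 or 2 the log2 change was 0.34 or 0.81, still called. EIF6, which keeps the ribosomal subunits from joining, had 256 ± 10.5 CPM in PladB and 196 ± 9.45 CPM in DMSO and rose by 0.38 ± 0.11 (edgeR adjusted p = 0.00668).

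Transcript starts are shown because 9 members share a TOP-like first base run, a feature that the choice by name did not use. RefSeq start sites of build GRCh38.p14 were at hand for 46 members, and 9 of these (19.6%) had a C at the first base followed by at least 4 bases that are each C or T, against 916 of 14109 coding genes with an entry (6.49%). A gene counted when any of its listed starts matched, and the transcript strand alone was read. In the lines below each sequence runs 5′ to 3′ from 10 bases before the start, and the capitals mark the first transcribed base and the run of C and T that goes on from it.
EIF3D, chr22:36529147-36529176, − strand: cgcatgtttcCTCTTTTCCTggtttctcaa
EIF3F, chr11:7987327-7987356, + strand: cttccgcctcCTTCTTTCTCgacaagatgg
EIF4A2, chr3:186783567-186783596, + strand: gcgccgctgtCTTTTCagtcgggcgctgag
EIF4B, chr12:53006446-53006475, + strand: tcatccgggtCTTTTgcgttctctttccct
EIF2S3, chrX:24054946-24054975, + strand: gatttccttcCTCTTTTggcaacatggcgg
EIF2D, chr1:206612446-206612475, − strand: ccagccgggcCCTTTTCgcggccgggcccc
EIF3K, chr19:38619178-38619207, + strand: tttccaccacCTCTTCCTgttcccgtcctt
EIF3M, chr11:32583821-32583850, + strand: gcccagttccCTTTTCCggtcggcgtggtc
EIF2A, chr3:150546777-150546806, + strand: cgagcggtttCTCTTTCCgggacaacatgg
The member with the deepest fall begins with a purine, shown as the single capital. A purine start was not particular to members that fell, since EIF1AD, EIF3I and EIF4A3, which rose, begin with A as well.
EIF4ENIF1, chr22:31489823-31489852, − strand: gccgggctgcAgttacggcggctgaagaga

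The first 6 of the genes with the run rose in all reads of PladB, and the other 3 were not called. Over the 9, the median log2 change was 0.47, against 0.12 over the 36 tested members with an entry and no such run, of which 8 rose and 5 fell. EIF2AK1, EIF3E, EIF3G, EIF3H and EIF3L, which also rose, had no start entry and are in neither count. Among the genes with the run, EIF3F was not called without its multimapping reads. Over all genes tested, 189 of 756 with the run and 1271 of 9565 without it were called higher. In T>C reads of PladB all 9 had a log2 change above 0. So had 18 of 34 tested members with an entry and no run, 297 of 653 genes with the run, and 39.2% of all genes tested. The median of the 9 was 0.76, and EIF4A2 was the 1 of them that was called. No test was run on these counts, and a match to the letters does not show that a transcript is a TOP mRNA.

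Among the members with the lowest labelled share, more were higher in PladB. The 49 members were ordered by the labelled share in WX-02-43, a group that is neither side of the comparison of PladB with DMSO. Its libraries did enter the spread, scaling and filter of the common fit, and so the calls. The 16 with the lowest share (up to 4.72%) held 11 that were higher in PladB and 1 that was lower, with a median log2 change of 0.45. The 17 in the middle (5.17% to 8.75%) held 4 higher and 2 lower, with a median of 0.14. The 16 with the highest share (9.26% to 56.2%) held 4 higher and 1 lower, with a median of -0.02. The 49 needed at least 100 reads in every library, PladB included, so the choice of genes was not independent of PladB. It left out EIF4ENIF1, which was called lower. The share that set the order was not corrected for the T positions that reads cover. Spearman's rho between share and change was -0.352 over the 49 members and -0.234 over 7927 coding genes with as many reads; genes of the same libraries share depth and scaling and are not independent, so both are descriptions.

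**Figure D4:**
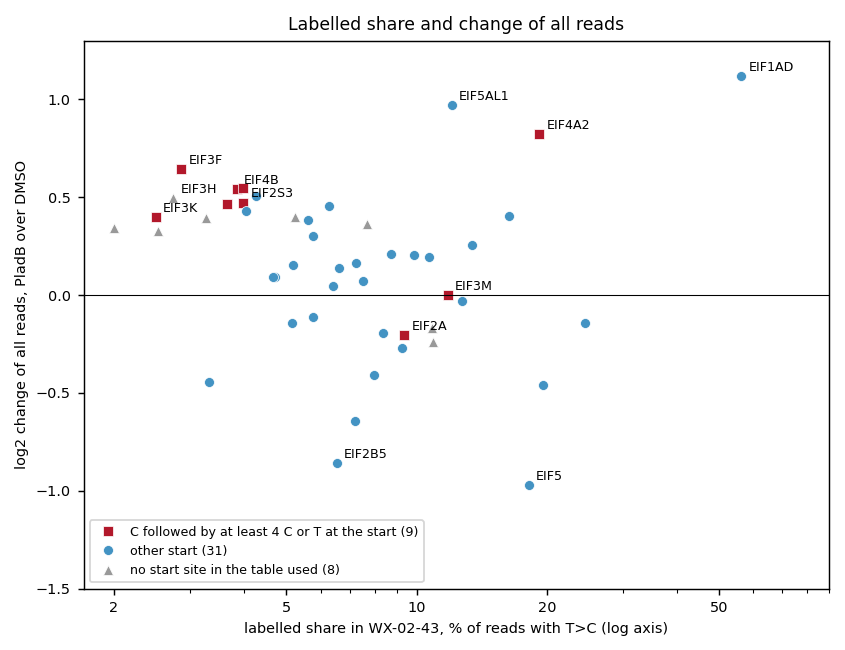
Labelled share in WX-02-43 (x, percent of reads with T>C, log axis) against the log2 change of all reads of PladB over DMSO (y) for 48 members, with symbols for a first base C followed by at least 4 C or T, another start, or no start site in the table. Points at the left lie mostly above 0, and EIF1AD, EIF4A2 and EIF5AL1 are high at larger shares.

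In T>C reads, which were scaled to the T>C reads of each library and thus compare a gene with the rest of the newly made RNA, 6 of 51 members were higher in PladB, 4 were lower and 41 were not called. The background was 10.6% of genes called, 4.72% higher and 5.90% lower. The median log2 change was 0.18 over the members and -0.36 over all genes. Scaling T>C reads to all reads instead moved the median of all genes to -1.15 and the split of the members to 1 higher (EIF5AL1) and 12 lower, so the rises below are relative to the other newly made mRNAs. Without the members of uncertain reads named above, 4 were higher and 3 were lower of 42. In a fit to the PladB and DMSO libraries alone, 4 calls were left: EIF1AD, EIF2B1 and EIF5AL1 higher, and EIF4ENIF1 lower.

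EIF1AD had 561, 495 and 544 T>C CPM in PladB, against 96.2, 337 and 110 T>C CPM in DMSO. Even the high DMSO replicate 2 lay under the PladB libraries, and the log2 change was 1.56 ± 0.35 (edgeR adjusted p = 0.00222). EIF2B1, the alpha subunit of eIF2B (chr12:124105570-124106302, − strand), had 246, 291 and 260 T>C CPM in PladB, against 67.4, 107 and 58.6 T>C CPM in DMSO, and its log2 change was 1.77 ± 0.40 (edgeR adjusted p = 0.0024). Scaled to all reads, these changes were 0.78 (adjusted p = 0.126) and 0.99 (adjusted p = 0.0955).

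EIF4A2 had 929, 541 and 883 T>C CPM in PladB, against 496, 337 and 433 T>C CPM in DMSO, a log2 change of 0.89 ± 0.23 (edgeR adjusted p = 0.00682). PladB replicate 2 was the lowest of its group and still above all DMSO libraries; without DMSO replicate 2 the call was lost (edgeR adjusted p = 0.0525). EIF3G, an RNA-binding eIF3 subunit, changed by 1.09 ± 0.34 (edgeR adjusted p = 0.0308), with groups that overlap and a call that was lost without DMSO replicate 1, DMSO replicate 2, PladB replicate 1 or PladB replicate 3 (edgeR adjusted p from 0.0581 to 0.200). EIF5A changed by 1.03 ± 0.25 (edgeR adjusted p = 0.00471; 0.0589 without PladB replicate 3). EIF5AL1 had 1985, 1925 and 1526 T>C CPM in PladB, against 584, 610 and 614 T>C CPM in DMSO, and a log2 change of 1.59 ± 0.17 (edgeR adjusted p = 7.81e-09). It is a near copy of EIF5A and uncertain as a single gene. Scaled to all reads, the log2 changes of EIF4A2, EIF3G and EIF5A were 0.09, 0.28 and 0.23 (edgeR adjusted p = 0.83, 0.606 and 0.552). EIF5AL1 kept its call under that scaling.

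EIF4ENIF1 had no T>C read in any PladB library, against 92, 51 and 115 in the DMSO libraries. Set against a floor of 3 reads per library, this is at least 14.4-fold lower (edgeR adjusted p = 0.000763), and 0 of 84 reads allows a labelled share of up to 3.57%, by counting error only. EIF2AK4 (GCN2, the kinase that senses uncharged tRNA; chr15:40327286-40327797, + strand) had 32, 6 and 3 T>C reads in PladB, against 192, 225 and 117 in DMSO. Its log2 change was -2.92 ± 0.80 (edgeR adjusted p = 0.0123), while its all reads were 47.5 ± 10.0 CPM in PladB and 57.3 ± 5.35 CPM in DMSO. Without DMSO replicate 2 it was no longer called (edgeR adjusted p = 0.0802).

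EIF4G3, a paralog of the eIF4G scaffold, had 17, 1 and 1 T>C reads in PladB, against 151, 61 and 58 in DMSO, a log2 change of -2.99 ± 0.85 (edgeR adjusted p = 0.0162; 0.0924 and 0.0550 without DMSO replicate 1 or PladB replicate 3). It has intervals at 2 places, chr1:21132785-21133811 and chr1:21267737-21267868 (− strand), and 14 of the 17 T>C reads of PladB replicate 1 lay in the second, which held no T>C read in DMSO. All reads of EIF4G3 were 59.4 ± 16.8 CPM in PladB and 68.0 ± 0.909 CPM in DMSO and were not called. EIF3A, the largest eIF3 subunit, had 140, 34.7 and 107 T>C CPM in PladB, against 257, 214 and 223 T>C CPM in DMSO, a log2 change of -1.30 ± 0.37 (edgeR adjusted p = 0.0181; 0.0603 and 0.0934 without DMSO replicate 1 or PladB replicate 2). EIF4EBP3 had 0, 0 and 7 T>C reads in PladB and 64, 80 and 67 in DMSO; its log2 change of -3.82 ± 1.33 was not called (edgeR adjusted p = 0.0583). EIF3K had the highest log2 change, 2.37, but on 31, 15 and 2 T>C reads in PladB and 14, 2 and 1 in DMSO, and it was not called (edgeR adjusted p = 0.491).

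**Figure D5:**
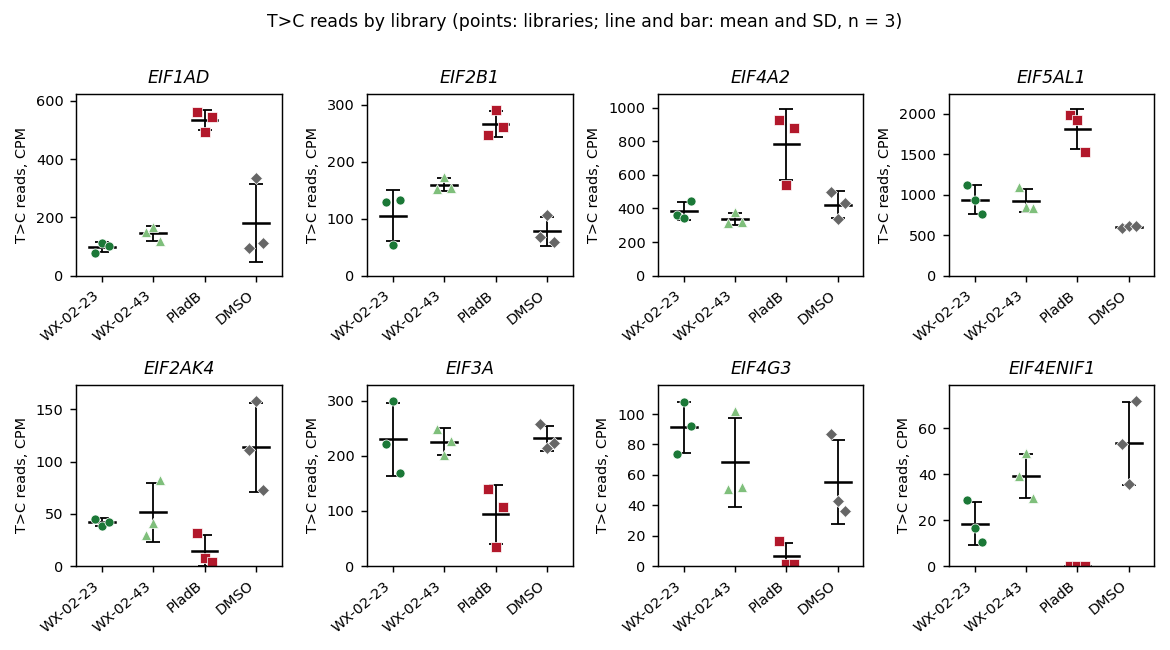
T>C reads of 8 initiation factor genes in CPM of T>C reads (y axes from 0) in each library of WX-02-23, WX-02-43, PladB and DMSO, with the mean and SD of 3 libraries. PladB is above DMSO in the upper row, and in the lower row it is below DMSO, with EIF4ENIF1 at 0 in all 3 PladB libraries.

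The change in the labelled share itself was tested as the odds of T>C against other reads, relative to the typical gene. In PladB against DMSO, 3 of 51 members were called, with a background of 2.90% of genes, 0.914% higher and 1.99% lower. EIF2AK4 had a share of 1.54% ± 1.32 in PladB and 19.2% ± 8.21 in DMSO, a log2 change in odds of -3.18 ± 0.86 (edgeR adjusted p = 0.0449). EIF4G3 had 0.50% ± 0.611 in PladB and 7.76% ± 4.05 in DMSO, a log2 change in odds of -3.22 ± 0.84 (edgeR adjusted p = 0.0379). EIF5AL1 had 8.14% ± 1.26 in PladB and 9.27% ± 1.08 in DMSO, which is a rise of 0.67 ± 0.17 relative to the typical gene (edgeR adjusted p = 0.0330) and a log2 change of -0.21 with no such scaling. None of the 3 calls held in every fit that left out 1 library: EIF2AK4 lost its call without any 1 but PladB replicate 1, EIF4G3 likewise, and EIF5AL1 without DMSO replicate 1, DMSO replicate 3, PladB replicate 1 or PladB replicate 2. EIF5, whose all reads fell, kept a share of 17.5% ± 3.86 in PladB and 19.9% ± 3.52 in DMSO and was not called.

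The stereoprobes were compared with DMSO at a dose and time that both share. For WX-02-23, none of the members was called in T>C reads, all reads or labelled share, with backgrounds of 0.224%, 0.698% and 0.0187% of genes. At an unadjusted p under 0.05 there were 2, 9 and 1 members, where the background was 4.54%, 8.70% and 3.60% of genes, and DESeq2 called 1 member in T>C reads and 1 in all reads. For WX-02-43, none was called either, with backgrounds of 0.0933%, 0.167% and 0.0187%. At an unadjusted p under 0.05 there were 2, 2 and 3 members, against 3.81%, 5.86% and 3.44% of genes, and DESeq2 called 1 in T>C reads and 0 in all reads. The smallest p in T>C reads belonged to EIF5AL1 in both. It had 1115, 937 and 757 T>C CPM in WX-02-23 and 1095, 844 and 838 T>C CPM in WX-02-43, against 584, 610 and 614 T>C CPM in DMSO. Every stereoprobe library was above every DMSO library, with log2 changes of 0.64 ± 0.17 (edgeR adjusted p = 0.159; DESeq2 adjusted p = 0.004) for WX-02-23 and 0.62 ± 0.17 (edgeR adjusted p = 0.299; DESeq2 adjusted p = 0.00761) for WX-02-43; these and PladB share the DMSO libraries.

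EIF3L, a PCI-domain eIF3 subunit, had the second smallest p of the members in all reads of WX-02-23, after EIF5AL1 at 0.40 ± 0.11 on the log2 scale (edgeR adjusted p = 0.0714). It had 151, 186 and 167 CPM in WX-02-23, against 226, 232 and 208 CPM in DMSO, without overlap. The log2 change was -0.40 ± 0.11 (edgeR adjusted p = 0.104; DESeq2 adjusted p = 0.032). In WX-02-43 EIF3L had 226 ± 30.4 CPM, against 222 ± 12.5 CPM in DMSO. The 4 members called lower in T>C reads of PladB had no common direction under the stereoprobes, and none was called (edgeR adjusted p = 1 for each). EIF4ENIF1 had 18.5 ± 9.26 T>C CPM in WX-02-23 and 39.4 ± 9.59 T>C CPM in WX-02-43, against 53.4 ± 18.0 T>C CPM in DMSO. EIF2AK4 had 41.9 ± 3.67 T>C CPM in WX-02-23 and 51.3 ± 27.8 T>C CPM in WX-02-43, against 114 ± 42.3 T>C CPM in DMSO. For both genes the WX-02-23 libraries lay below those of DMSO and the WX-02-43 libraries overlapped them. EIF4G3 had a higher mean in both, 91.3 ± 16.9 T>C CPM in WX-02-23 and 68.3 ± 29.3 T>C CPM in WX-02-43, against 55.3 ± 27.7 T>C CPM in DMSO, with overlap. EIF3A had 230 ± 66.3 T>C CPM in WX-02-23 and 226 ± 24.2 T>C CPM in WX-02-43, against 231 ± 22.6 T>C CPM in DMSO. The member with the highest log2 change in T>C reads was EIF3K under both stereoprobes, at 1.39 ± 1.86 for WX-02-23 and 2.06 ± 1.90 for WX-02-43. Neither was called. EIF2B3, an eIF2B subunit gene, had the lowest in WX-02-23, on 12, 0 and 0 T>C reads in WX-02-23 and 51, 0 and 0 in DMSO; its log2 change of -2.30, with a 95% interval from -7.16 to 2.57, was not called.

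Set against WX-02-43 at the same dose and time, WX-02-23 gave no called member in any of the 3 readouts, with backgrounds of 0.0466%, 0.152% and 0% of genes; this was the 1 pair of compounds that could be matched. In T>C reads, all reads and labelled share 0, 4 and 2 members had an unadjusted p under 0.05, where the background was 2.85%, 5.51% and 2.84% of genes, and DESeq2 called 0 in T>C reads and 0 in all reads. The smallest p in all reads was that of EIF3L, at 168 ± 17.2 CPM in WX-02-23 and 226 ± 30.4 CPM in WX-02-43, a log2 change of -0.43 with a 95% interval from -0.66 to -0.20 (edgeR adjusted p = 0.1998). For EIF1, with many reads, the interval in T>C reads ran from -0.11 to 0.56, so the missed threshold does not show that the compounds act alike. For EIF2B3, with few T>C reads, it ran from -6.94 to 2.73. PladB was given at another dose, and its values were set only against DMSO.

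Genes that work with the initiation factors were counted in lists by role, against the shares of all genes given above for PladB, 13.9% higher and 16.3% lower in all reads and 4.72% higher and 5.90% lower in T>C reads. Of 16 genes for mRNA binding and recruitment, 5 were higher in all reads of PladB (PABPC1, PABPC4, PAIP2, MCTS1 and BZW2) and 4 were lower (DDX3X, GIGYF1, GIGYF2 and PDCD4). PABPC1, the poly(A)-binding protein that eIF4G contacts, had 2389 ± 134 CPM in PladB and 1731 ± 126 CPM in DMSO, and GIGYF2, a partner of the cap-binding repressor 4EHP, had 8.67 ± 1.39 CPM in PladB and 23.4 ± 4.24 CPM in DMSO. Of 11 signalling genes none was higher and 3 were lower (RPTOR, RPS6KB1 and MKNK2). MKNK2, a kinase that phosphorylates eIF4E, had 113 ± 4.35 CPM in PladB and 207 ± 21.8 CPM in DMSO, and fell in T>C reads as well, by 1.81 on the log2 scale (edgeR adjusted p = 5.59e-05). Of 11 elongation and termination genes, 5 were higher (EEF1A1, EEF1A2, EEF1B2, EEF1G and EEF2) and EEFSEC was lower. In T>C reads of PladB the counts were 0 higher and 1 lower of 16, 0 higher and 2 lower of 11, and 1 higher (EEF1A1) and 0 lower of 10; no test was run on the counts of these lists. Against DMSO and against each other, the stereoprobes gave 1 call in these lists over the 3 readouts, EEF1A1 in all reads of WX-02-23, where 0.698% of all genes were called. EEF1A1, which encodes the elongation factor that brings aminoacyl-tRNA to the ribosome, had 5536 ± 299.8 CPM in WX-02-23, 6171 ± 167.8 CPM in WX-02-43 and 9269 ± 468 CPM in PladB, against 6742 ± 919 CPM in DMSO. Its log2 change was -0.28 ± 0.07 in WX-02-23 (edgeR adjusted p = 0.0229) and 0.46 ± 0.07 in PladB (edgeR adjusted p = 6.24e-07).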

How the data were processed

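Total RNA was alkylated with iodoacetamide and sequenced from its 3′ ends (QuantSeq), per the labels' protocols, although the labels name the molecule genomic DNA. Per the file headers, slamdunk 0.4.3 counted reads in intervals for curated RefSeq 3′ UTRs and for spike-ins. The submitters' processing notes name hg19. For every interval the authors deposited whole counts of reads, T>C reads, multimapping reads, covered T positions and conversions. The authors' CPM column gave the library totals only, 24670716 to 42190854 reads, and the deposited conversion rate, a fraction of covered T positions, was not tested.

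Of 29255 intervals, 23086 were coding; 23 of these on the pseudoautosomal part of chromosome Y were left out. Overlapping intervals of a gene were joined so that a read counted once, leaving 58 of the members' 61 intervals. Exon numbers came from GENCODE release 29 by name, and start sites from RefSeq. Genes were tested with edgeR 4.0.16 (R 4.3.3): a quasi-likelihood fit to all 12 libraries, TMM scaling, filterByExpr, and Benjamini-Hochberg adjustment over all coding genes tested (10722 in T>C reads, 13178 in all reads). The labelled share was fitted in edgeR on 24 columns, T>C and other reads of each library, with a term per library. CPM values other than those of the cell type markers use the fitted scale, with n = 3. In simulated data with known changes in PladB against DMSO, the fit found 54% of 2-fold and 70% of 4-fold changes in all reads. It found 1% and 21% in T>C reads, and 4% and 19% in labelled share. None of the changes found had a wrong sign. The changed genes were drawn at random from all genes tested, so these rates are not those of the members. The reads carry no molecular identifiers, so bounds cover counting error only. The replicate numbers did not pair the samples (correlations from -0.033 to 0.0267).

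Genes named are the members called in any comparison, the member with most reads per role, and the extremes of labelled share and of T>C change; levels of EIF1AY, on chromosome Y, are not given. The members and lists were chosen with earlier results of these data known. DESeq2 1.42.0 was an alternative. Some of the luminal marker genes are not reported here.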

Additional observations from a re-analysis of the deposited data

Results flagged for a closer look

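Some noncoding intervals carry names derived from members and took no part in the comparisons. The noncoding EIF6 intervals hold the coding interval of EIF6, whose values stand in the report, and are left out here. Of the others, EIF3J-AS1 and EIF3IP1 had all 3 libraries of at least 1 compound above all 3 DMSO libraries, EIF3IP1 in T>C reads only. Only rises were looked for, in each compound and in both all reads and T>C reads. The share of all intervals with such a gap was not counted, so these are not results about the named intervals. EIF3J-AS1, on the minus strand at chr15:44826703-44829121 of hg19 and apart from the EIF3J interval, had 85.1, 78.6 and 90.4 CPM in PladB (mean 84.7), against 33.5, 40.9 and 38.9 CPM in DMSO. Its mean in WX-02-23 was 43.0 CPM. In T>C reads it averaged 196 T>C CPM in PladB and 102 T>C CPM in WX-02-43, against 80.7, 33.6 and 75.4 T>C CPM in the DMSO libraries. The lowest WX-02-43 library had 82.6 T>C CPM. EIF3IP1, on the minus strand at chr7:109599284-109600270, averaged 60.4 T>C CPM in PladB (36, 81 and 27 T>C reads). Its DMSO libraries had 17.3, 25.9 and 30.5 T>C CPM (30, 37 and 49 T>C reads). In all reads the groups overlapped, at 2.00, 5.97 and 1.97 CPM in PladB and 2.25, 2.37 and 3.04 CPM in DMSO. All PladB reads of EIF3IP1 carried T>C, as did 30 of 40, 37 of 37 and 49 of 51 of its DMSO reads. No test was run on these intervals.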

How the results depend on the processing

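The 37 member calls of PladB against DMSO gave 475 alternative fits, of which 389 kept the call, 85 lost it and 1 turned round (EIF5AL1 in labelled share, -0.21 with no scaling to the typical gene); 19 of the 37 calls held in every fit without 1 library, 15 of them in all reads. Called members in T>C reads of PladB were 7 to 10 without 1 library and 4 with only the 2 groups compared. In labelled share they were 0 to 3 without 1 library, 6 with no filter on low counts, 13 with no scaling to the typical gene and 0 with the plain sum of intervals; the cause was not tested. In all reads of PladB they ranged from 19 to 21 without 1 library. Against DMSO, WX-02-23 gained 1 member in T>C reads under DESeq2 (EIF5AL1), and in all reads 1 under DESeq2 (EIF3L), 2 with no filter (EIF3L and EIF5AL1) and 0 to 1 without 1 library (EIF5A without DMSO replicate 1, EIF5AL1 without WX-02-23 replicate 3); WX-02-43 gained 1 in T>C reads under DESeq2 (EIF5AL1). With the replicate block, 1 member was called in all reads for WX-02-23 (EIF5AL1), against 10 in T>C reads and 24 in all reads for PladB. For the summed labelled share, the difference between WX-02-23 and DMSO became -0.423 points as the median over members, that between WX-02-43 and DMSO became 0.154 as percent of covered T, and that between WX-02-23 and WX-02-43 became -0.0448 by that measure; without 1 library, PladB minus DMSO ran from -2.93 to -2.50 points. Leaving out the members of uncertain reads, and the sums without EIF5AL1, were chosen after seeing the data. In data simulated at the depth and spread of these libraries, 2-fold changes in T>C reads of PladB were mostly missed for genes drawn from all those tested. Depth and spread were not separated.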
